A study of Homo sapiens with 56 samples.

Results

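Beta-catenin switches on a small group of genes whose products feed back on the Wnt pathway itself, and 10 of them were chosen by name for this description: AXIN2, LEF1, TCF7, NKD1, NKD2, NOTUM, RNF43, ZNRF3, SP5 and APCDD1. Of these 10, 9 had a probe set annotated to that gene alone, out of 18377 genes measured, and TCF7 was not analysed here. Each of the 9 has 1 such probe set, so no choice between probe sets was needed for them. Total RNA of 28 established cell lines from ovarian cancer was hybridised to 56 Affymetrix Human Gene ST arrays, 2 per line. The labels name no treatment. DMEM was the base medium of 10 lines, RPMI of 9 and DMEM/F12 of 7, with serum at 10% in 22 lines, TOV112D among them, at 20% in EFO21 and OVCAR3, at 5% in OV17R, OV56 and OV7 and at 3% in UWB1.289. UWB1.289 was alone in RPMI mixed with MEGM and TOV112D was alone in MCDB105 mixed with M199. Values are log2 signals after the authors' normalization, and 1 log2 unit is a doubling of signal. The study placed such lines along an epithelial-mesenchymal transition (EMT) score. The question here is which lines held high levels of these genes, with particular attention to TOV112D, a line known for a mutation in CTNNB1, the gene of beta-catenin. The mutation was not read in these data, and since no other line shared its medium, the line and its medium cannot be told apart.

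In cells without a Wnt signal, a destruction complex built on the scaffolds AXIN and APC marks beta-catenin for degradation. When Wnt ligands bind Frizzled and LRP receptors, or when beta-catenin is mutated at the residues that are marked, the protein accumulates and acts in the nucleus with TCF/LEF factors. Many of the genes then transcribed are inhibitors of the same pathway. AXIN2 rebuilds the destruction complex. LEF1 and TCF7 are DNA-binding partners of beta-catenin. NKD1 and NKD2 bind Dishevelled, NOTUM is a secreted enzyme that removes the lipid from Wnt proteins, RNF43 and ZNRF3 are ubiquitin ligases that clear Frizzled receptors from the cell surface, SP5 is a transcription factor that represses Wnt target genes, and APCDD1 is a membrane glycoprotein that inhibits Wnt signalling.

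RefSeq promoter sequences (GRCh38.p14, 250 bases before to 50 after a transcript start) were matched for 6 of the 10 genes and covered 8 starts. No entry was matched for AXIN2, NKD1, NOTUM and ZNRF3. The 250 upstream bases were searched on both strands for the TCF/LEF word CTTTG followed by 2 bases that are each A or T, which 12% of all 35116 promoters in the same table contain. Among the 8 starts, 2 held a match: 1 of the 2 starts of TCF7, with 1 match, and the start of SP5, with 3. These matches are shown because they are the sequence to which LEF1 and TCF7 proteins bind, read on the strand of the gene, with the word or its reverse complement in capitals. A match is a description of the letters and not evidence of binding.
SP5, chr2:170715178-170715207, plus strand: agctttgtggaTTCAAAGgatttgctttcg
SP5, chr2:170715217-170715246, plus strand: gagccgctattCTTTGATgattgggtagcg
SP5, chr2:170715242-170715271, plus strand: tagcggcaaacTTCAAAGccataaatcttc
TCF7, chr5:134123557-134123586, plus strand: ggccccactggAACAAAGgaggagagaggc

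Of the 56 arrays, 3 stood apart from the rest. Array 1 of HEYC2, array 2 of OV56 and array 1 of OVCA420 had a narrower range of values (SD over genes 1.57 to 1.68, against 1.91 to 2.09 on the other 53) and correlated with their own duplicates at 0.615 to 0.806, against 0.98 to 0.997 in the other 25 lines. SP5 read 8.65, 8.55 and 9.01 on these arrays and 7.24, 7.20 and 6.86 on their duplicates. NKD1, NKD2, NOTUM and APCDD1 were also higher on all 3 arrays than on their duplicates, by 0.96 to 1.67 log2 units. From 1.04% to 30.7% of all genes rose at least as much on the same arrays. AXIN2 was higher on all 3 as well, by 0.47 to 1.31, and ZNRF3 by 0.07 to 0.38. For AXIN2 6.89% to 51.2% of all genes rose at least as much, and for ZNRF3 46.4% to 59.5%. The main results for the 9 genes are therefore given with and without these 3 arrays. Markers, pathway lists, EMT slopes and means by base medium are given with all arrays kept. The labels do not say whether the duplicate arrays of each line were made from 1 culture or more, and p-values over arrays rest on a spread that may be technical. TOV112D was checked against markers, with the other lines as the comparison. In TOV112D 3.38% of all genes were called higher and 3.27% lower over arrays (limma, at an adjusted p under 0.05 and at least 1 log2 unit), the shares beside which calls for its lists are to be read. Markers of T cells, which also use LEF1 and TCF7, had a mean log2 level of 4.70 in TOV112D and 4.60 to 5.14 in the other lines, and none of the 6 differed in TOV112D. Of 8 ovarian epithelial tumour markers, KRT8, KRT18, PAX8 and CDH1 were lower in TOV112D and none was higher, and of 5 fibroblast markers DCN (6.74 against a mean of 3.70 in the other lines) and LUM (9.30 against 3.50) were higher. These calls were made over arrays, and none of the 6 genes passed against the spread of lines (adjusted p from 0.578 to 0.999). Of 3 endothelial markers CDH5 was lower, and none of 3 other immune and 3 germ cell and pluripotency markers was called in TOV112D. Calls for markers were not read in the other lines. TYKNU was the highest line for the endothelial markers PECAM1 and CDH5, at 9.79 and 9.28 beside medians of 4.78 and 5.63, but not for VWF. CAOV3 was highest for the T cell marker CD3G, at 7.6 beside a median of 4.87, and for no other T cell marker. The part of these markers in the results below was not tested.

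The genes did not vary equally between lines. LEF1 ranged most, from 3.78 in OVCA433 to 8.59 in TOV112D with a median of 4.65, followed by AXIN2 from 5.53 to 8.71 and RNF43 from 4.95 to 7.94. The SD between line means was 1.08 for LEF1, 0.70 for AXIN2 and for RNF43, 0.45 for APCDD1 and 0.44 for ZNRF3, against a median of 0.42 over all genes. NKD1, NKD2, NOTUM and SP5 varied less, with an SD between line means of 0.23 to 0.29, which was below the SD of 0.29 to 0.41 between the arrays of a line. Without the 3 arrays, NOTUM and NKD1 spread more between lines (0.26 and 0.21) than between arrays (0.13 for each), whereas NKD2 (0.15 against 0.17) and SP5 (0.12 against 0.15) did not. For these 2 genes the lines could not be ordered on these arrays. With the lines ordered by mean and all arrays kept, the arrays of neighbouring lines were separate in 8 of 27 pairs for AXIN2 and for LEF1, 6 for ZNRF3, 3 for NOTUM, 2 for RNF43 and 1 for each of the other 4 genes. Across all genes the median ratio of the spread between lines to that between arrays was 1.25 with all arrays and 2.84 without the 3 arrays.

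**Figure D1:**
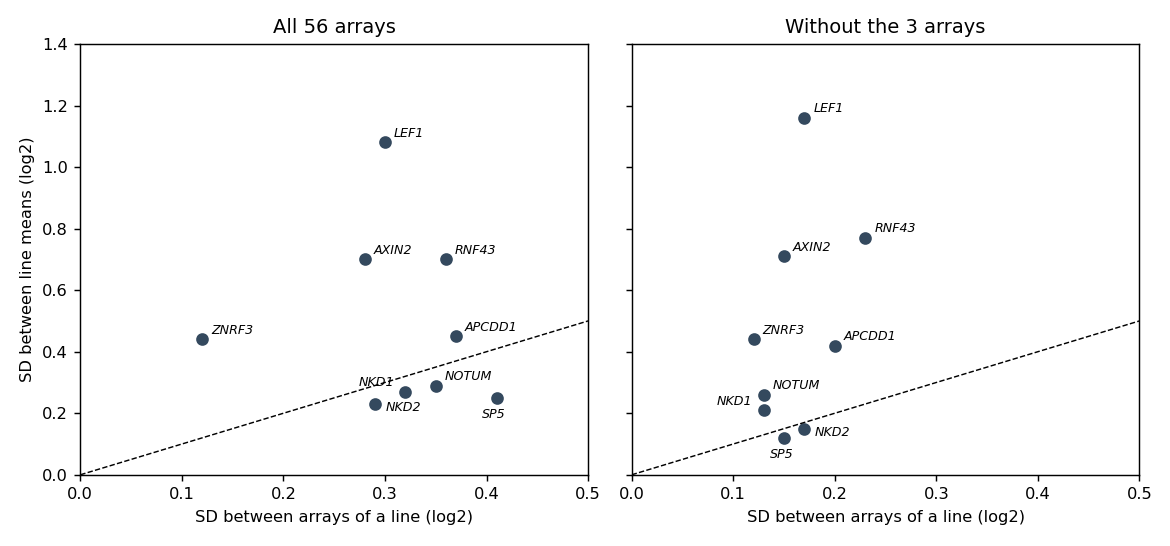
Spread of the 9 genes between the 28 line means (vertical axis, SD in log2 units) against the spread between the arrays of a line (horizontal axis, pooled SD in log2 units), with all 56 arrays on the left and without the 3 arrays that stand apart on the right. The dashed line marks equal spread; SP5 and NKD2 lie below it in both panels, and LEF1 lies highest, at 1.08 and 1.16.

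TOV112D stood highest of the 28 lines for AXIN2, LEF1, APCDD1 and NOTUM, next to highest for ZNRF3 and at rank 3 for NKD1. Against the mean of the other 27 lines (limma, arrays as replicates), 3 of the 9 genes were called higher, and none lower, where 3.38% of all genes were called higher. The median difference over the 9 genes was 0.70 log2 units, beside -0.08 over all genes. Both arrays of TOV112D lay above all 54 other arrays for the same 3 genes, AXIN2, LEF1 and APCDD1, which held for 1.46% of all genes. Set against the spread of the 27 other line means instead, 2 of the 9 genes, APCDD1 and AXIN2, were called higher, and 0.267% of all genes were. Neither was called there when array 2 of every line was left out, which leaves HEYC2 and OVCA420 to the arrays that stand apart, and AXIN2 was at 0.0496 when array 1 of every line was left out.

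**Figure D2:**
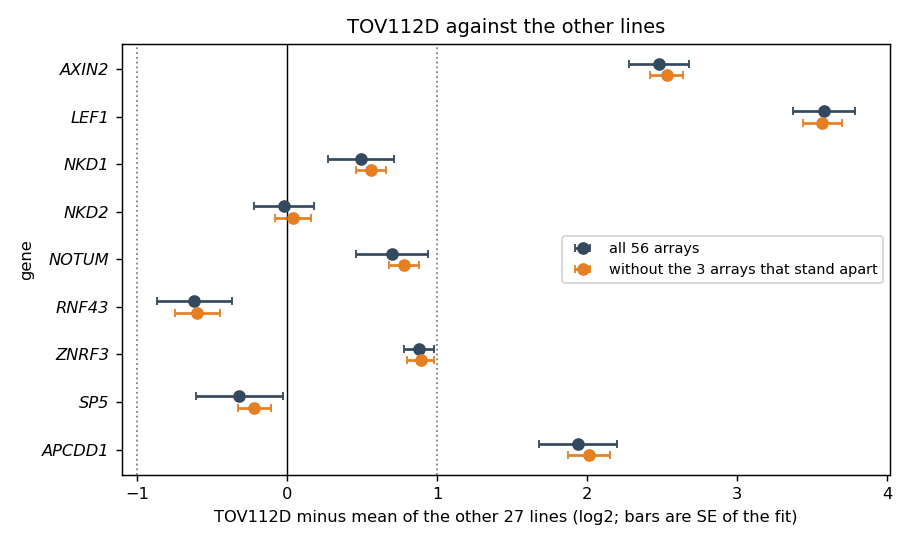
Difference between TOV112D and the mean of the other 27 lines for each gene, in log2 units, with the SE of the limma fit as bars, for all 56 arrays and without the 3 arrays that stand apart. Dotted lines mark 1 log2 unit; LEF1, AXIN2 and APCDD1 lie beyond it at 3.58, 2.48 and 1.94 with all arrays, and RNF43 and SP5 lie below 0.

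AXIN2 (chromosome 17, 65528563 to 65561648, GRCh38.p14), the scaffold, read 8.75 and 8.67 in TOV112D. The other lines ran from 5.53 in JHOS3 to 7.95 in OVCA432. The nearest array of another line was one of OVCA432 at 8.09. The difference from the mean of the other lines was 2.48 log2 units (SE 0.20, limma adjusted p = 2.23e-11 over arrays, 0.0221 against the spread of lines). OVCA432 came second, with arrays at 8.09 and 7.81, and was called higher by 1.69 log2 units (SE 0.20, limma adjusted p = 7.45e-08) over arrays only. CH1 followed at 7.39 and 7.17 and OAW28 at 7.01 and 7.04. The arrays of these 4 lines did not overlap, so their order was larger than the spread within each line. CH1 exceeded the mean of the others by 0.99 log2 units, just under the limit, and by 1.05 without the 3 arrays, when it was called. Below OAW28 the remaining lines lay between 5.53 and 6.62.

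LEF1 (chromosome 4, 108047548 to 108168932), the DNA-binding partner, showed the largest difference. It read 8.60 and 8.58 in TOV112D and exceeded the mean of the other lines by 3.58 log2 units (SE 0.21, limma adjusted p = 9.98e-15 over arrays). Against the spread of lines it was not called (limma adjusted p = 0.068). It passed there at 0.0347 when the related lines HEY and HEYC2 were merged, and gave 0.138 without the 3 arrays. HEYC2 read 6.13 on the array that stands apart and 7.85 on the other one. CH1 read 6.85 and 6.76, TYKNU 6.48 and 6.56, and OVCAR5 6.41 and 6.37, and these 4 lines were called higher over arrays by 1.30 to 1.92 log2 units. Without its array that stands apart HEYC2 was higher by 2.80 log2 units. HEY, at 6.06 and 5.97, was 0.91 above the mean of the others and was not called. At the other end OVCA433, at 3.97 and 3.59, was called lower, with a difference of -1.41 log2 units from the mean of the others. From the median over lines, which the high lines move less, its difference was -0.87, short of 1 log2 unit. Both OVCA433 and that median of 4.65 are dim, since 25% of all genes have a mean under 5.38. In these RNA pools from whole cultures, fewer cells with a transcript and less transcript per cell cannot be told apart.

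APCDD1 (chromosome 18, 10454635 to 10489949), the membrane inhibitor, read 8.26 on both arrays of TOV112D. The other lines ran from 5.87 in OV17R to 7.01 in HEYC2, and the next lines by mean, HEYC2, OV56 and OVCA420, each owed their place to an array that stands apart (7.67, 7.64 and 7.44, beside 6.36, 6.39 and 5.93 on their duplicates). Without those arrays OVCA433 was next at 6.63. The difference of TOV112D from the other lines was 1.94 log2 units (SE 0.26, limma adjusted p = 6.83e-07 over arrays, 0.000313 against the spread of lines). Without the 3 arrays the last value was 5.17e-08. With all arrays, no neighbouring pair of lines below TOV112D had separate arrays for this gene, and no other line was called.

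The receptor ligases went separate ways. ZNRF3 (chromosome 22, 28883572 to 29057488) was highest in CAOV3 (8.24 and 8.06), TOV112D (8.08 and 8.12) and OVCA432 (8.06 and 8.08), whose arrays overlapped, so their order was not resolved. TOV112D lay 0.88 log2 units above the mean of the others (SE 0.10, limma adjusted p = 8.7e-08), under the limit of 1 log2 unit, and the lowest line was UWB1.289 at 6.59. RNF43 (chromosome 17, 58352500 to 58417534) was not high in TOV112D, which was 23rd of 28 with arrays at 5.83 and 5.53, a difference of -0.62 log2 units (SE 0.25, limma adjusted p = 0.0865, and 0.00139 without the 3 arrays, at -0.60). RNF43 was highest in CH1, at 8.20 and 7.67, called higher by 1.72 log2 units (SE 0.25, limma adjusted p = 2.84e-06). It was called lower in SKOV3 (4.64 and 5.25) and HEY (5.08 and 5.47). Without the 3 arrays OVCA420 was also called higher and OV56 lower. These calls rest on 1 array each, at 7.70 and 5.17, which is assumed to vary like the arrays of the other lines, and the arrays left out read 6.31 and 6.23.

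**Figure D3:**
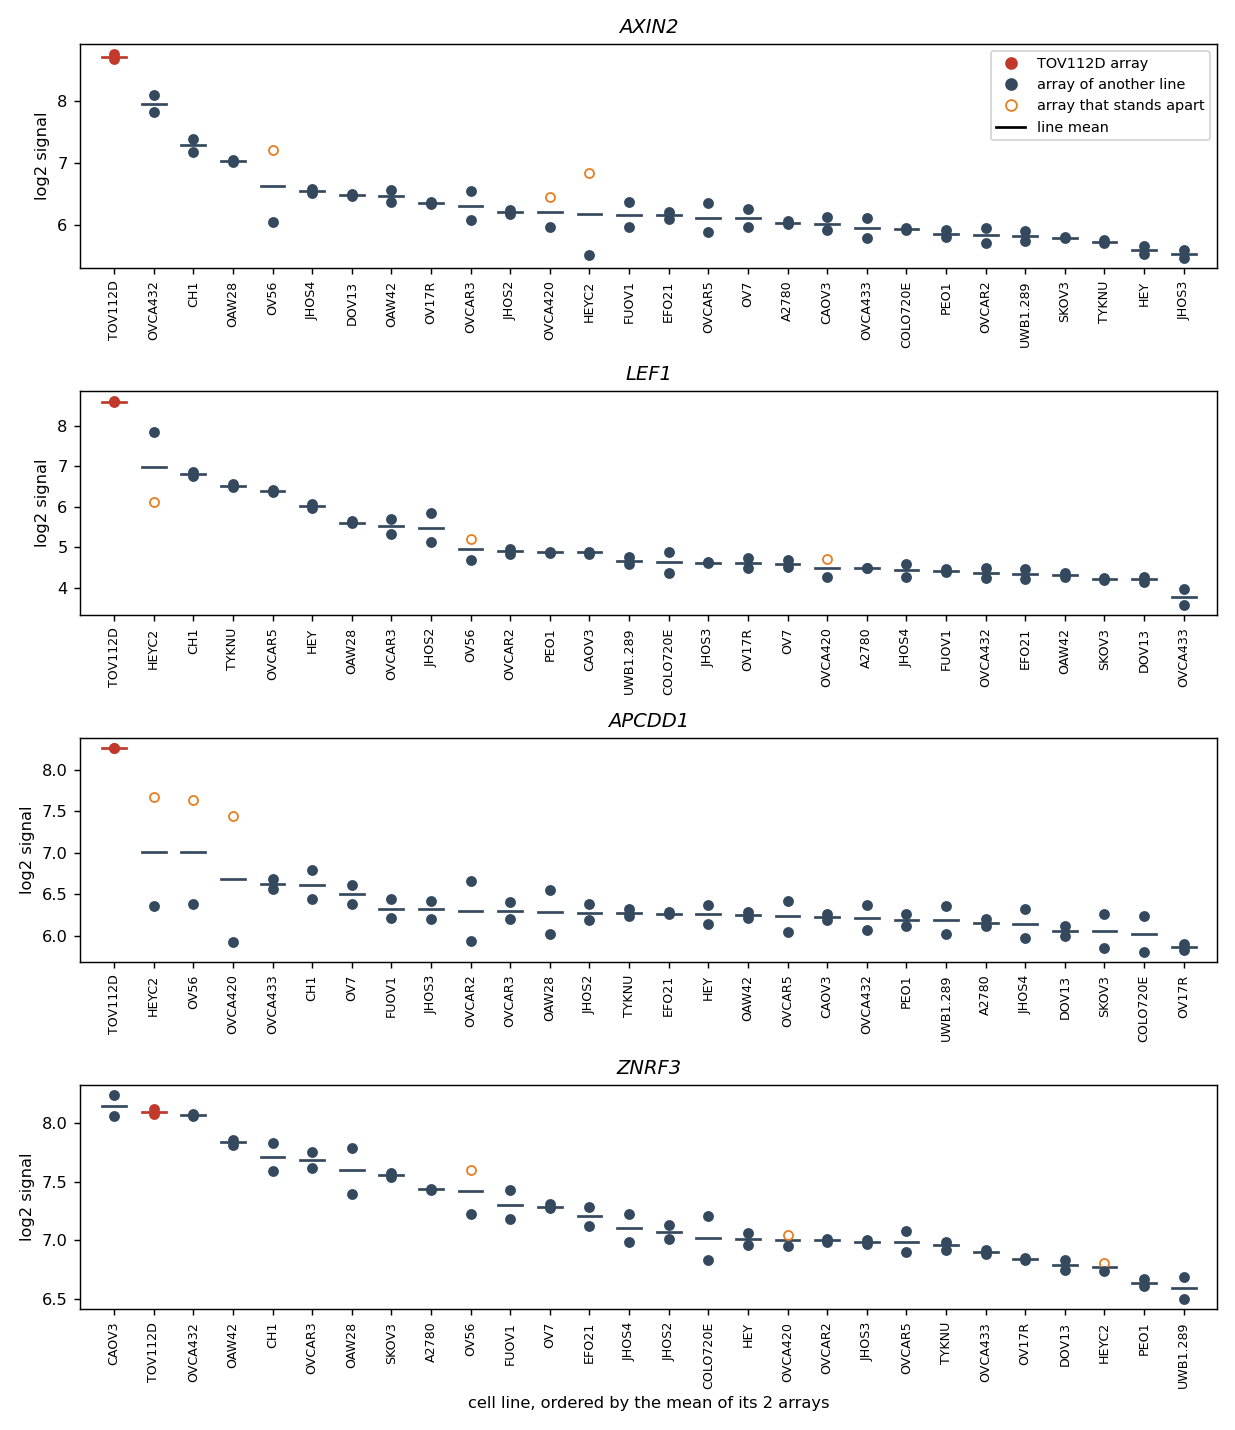
Log2 signal of AXIN2, LEF1, APCDD1 and ZNRF3 on both arrays of each of the 28 lines (points), ordered in each panel by the mean of the line's arrays (bars). Red points are TOV112D and open orange points the 3 arrays that stand apart; TOV112D leads the first 3 panels, at means of 8.71, 8.59 and 8.26, and shares the top of the ZNRF3 panel with CAOV3 and OVCA432.

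The remaining 4 genes moved little. NOTUM (chromosome 17, 81952507 to 81961187) read 6.96 and 6.89 in TOV112D, its highest line, 0.70 log2 units above the mean of the others (SE 0.24, limma adjusted p = 0.0389, and 2.86e-08 without the 3 arrays, at 0.78), under the limit of 1 log2 unit. The 3 arrays that stand apart read 7.12 to 7.56. CAOV3 (6.74 and 6.57) was the next line without the 3 arrays. NKD1 (chromosome 16, 50548396 to 50649249) read 6.80 and 6.67 in TOV112D. Its difference of 0.49 log2 units did not pass with all arrays (SE 0.22, limma adjusted p = 0.141). Without the 3 arrays TOV112D was the highest line, at a difference of 0.56 (SE 0.10, limma adjusted p = 1.2e-05), and OVCA432 came second with arrays at 6.49 and 6.70, which overlapped those of TOV112D. For NKD2 (chromosome 5, 1008802 to 1038943), TOV112D read 6.24 and 6.37 and differed from the others by -0.02 log2 units (limma adjusted p = 0.972). SP5 (chromosome 2, 170715337 to 170718078), the gene with 3 TCF/LEF words before its start, read 6.99 and 6.94 in TOV112D, with a difference from the others of -0.32 log2 units (SE 0.29, limma adjusted p = 0.558), and of -0.22 without the 3 arrays (SE 0.11, limma adjusted p = 0.0892).

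Over all 28 lines and 9 genes, 9 of 252 combinations (3.57%) were called higher and 3 (1.19%) lower over arrays, while 3.78% of all combinations of gene and line were called higher and 3.56% lower. The share called higher was thus near that of all genes. Without the 3 arrays 11 of 252 were called higher. The share of all genes called higher in a line then ran from 2.73% in OVCA433 to 5.45% in OVCA420. The combinations called higher were the 3 in TOV112D, AXIN2 in OVCA432, LEF1 and RNF43 in CH1, and LEF1 in HEYC2, OVCAR5 and TYKNU. The remaining 22 lines had none of the 9 genes called higher. Against the spread of lines the 2 calls in TOV112D were the only ones higher, where 0.264% of all combinations were called. The mean of the 9 genes, each centred on its median over lines, was 1.11 log2 units in TOV112D, 0.68 in CH1 and 0.55 in HEYC2, and from -0.26 in SKOV3 to 0.38 in OVCA420 elsewhere. Without the 3 arrays it was 1.13 in TOV112D, 0.71 in CH1, 0.38 in OAW28, 0.36 in OVCAR3 and 0.33 in OVCA432, and HEYC2, OVCA420 and OV56 dropped to 0.16, 0.01 and -0.12. CH1 was the line after TOV112D in both orders, with LEF1 and RNF43 called, AXIN2 near the limit and APCDD1 at 6.62. It was also the highest line for the germ cell and pluripotency markers LIN28A and SOX2, at 9.56 and 10.27. Whether these markers bear on its levels was not tested.

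**Figure D4:**
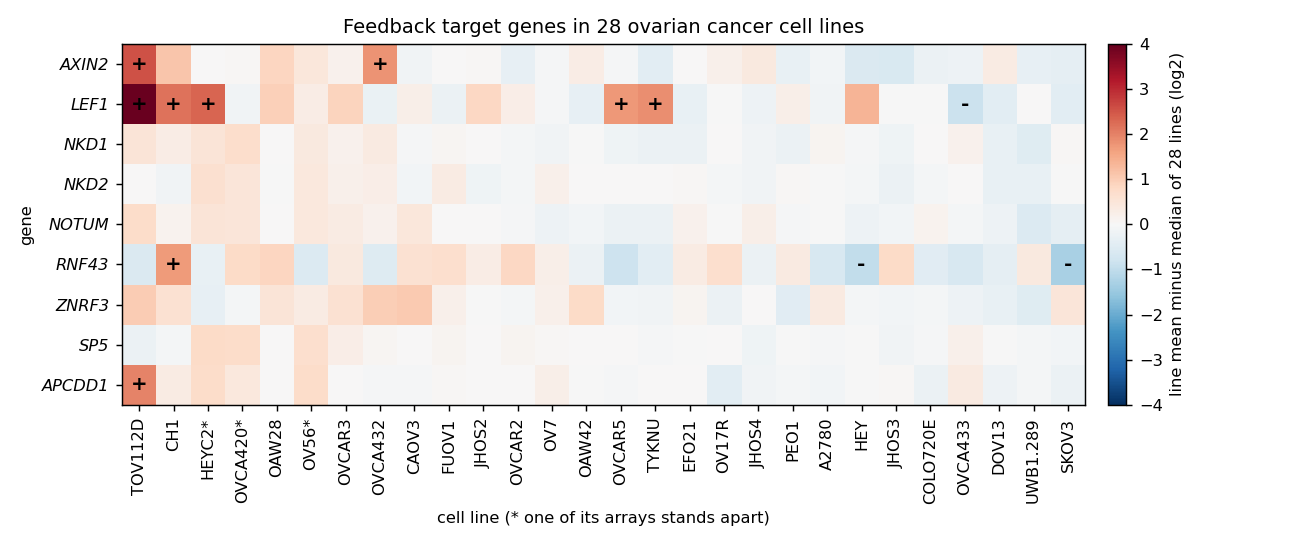
Line mean of each gene minus its median over the 28 lines, in log2 units (colour, blue below and red above the median), with genes as rows and lines as columns ordered by the mean over the genes. Plus and minus signs mark the 9 combinations called higher and the 3 called lower over arrays, and asterisks mark lines with an array that stands apart; TOV112D carries 3 plus signs and CH1 carries 2.

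Levels of the genes were related to each other over the lines, as a description, since all points share arrays and normalization. AXIN2, NKD1, NOTUM and ZNRF3 varied together. Without the 3 arrays, Pearson's r for their 6 pairs was 0.613 to 0.674 over 28 lines, and 0.446 to 0.597 over 27 lines once TOV112D was left out as well. Of all 36 pairs of the 9 genes, 4 then had an r of at least 0.5, and each was between these 4 genes, which were grouped after their values had been seen. The median over the 36 pairs was 0.203. ZNRF3 had an r with AXIN2 of 0.585, a value that 0.441% of all genes reached, NKD1 0.529 (0.941% of genes) and NOTUM 0.446 (2.46%). Low shares follow from the way these genes were grouped. For the genes outside the group the shares ran from 14.8% (RNF43) to 59.8% (LEF1). LEF1 behaved differently: its r with AXIN2 was 0.345 with TOV112D and -0.0772 without it, and with the other 8 genes it reached at most 0.294 without TOV112D. APCDD1 had an r with AXIN2 of 0.639 with TOV112D and 0.0894 without it. The relation of LEF1 and of APCDD1 to AXIN2 thus rested on TOV112D. With the 3 arrays kept, the largest r among the 36 pairs was 0.818, between NKD2 and SP5, and it was 0.434 without them.

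Outside the 9 genes, the genes most like AXIN2 by Pearson's r over the 28 line means were A2M (0.766), HEY2 (0.759), PRL (0.691), CD36 (0.691), TRO (0.688), MAP3K15 (0.68), TENT5C (0.674) and VASH1 (0.668). Without TOV112D, r was 0.535 for A2M, 0.663 for HEY2, 0.22 for PRL and 0.269 for CD36. MAP3K15 and TENT5C kept 0.668 and 0.664. Those most like the mean of the 9 genes were PAX3 (0.849, and 0.836 without TOV112D), ZCCHC12 (0.825 and 0.681), KRT40 (0.768 and 0.563), TCF21 (0.762 and 0.574), LSAMP (0.761 and 0.538), GPRASP1 (0.76 and 0.66), LRRN3 (0.744 and 0.638) and CXCL14 (0.737 and 0.495). Without the 3 arrays, r with AXIN2 was 0.633 (MAP3K15) to 0.771 (A2M), and r with the mean was 0.673 (TCF21) to 0.831 (ZCCHC12).

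The rest of the pathway was read in TOV112D from lists of its parts, with calls over arrays, beside 3.38% of all genes called higher and 3.27% lower. Of the genes called in the lists of this paragraph, none passed against the spread of lines. Of 13 genes of beta-catenin and its destruction complex, none was called in either direction: CTNNB1 itself was at 11.07 against a mean of 11.20 in the other lines (difference -0.13, SE 0.45, limma adjusted p = 0.899), AXIN1 at 7.09 against 7.19 and APC at 6.53 against 6.62. The median difference over this list was -0.04 log2 units. Of 13 nuclear partners, PYGO1 and CHD8 were called higher, by 1.08 and 1.46 log2 units, and TCF7L2, a TCF factor, was at 7.44 against 7.65. TOV112D was at rank 2 of the lines for PYGO1 and at rank 1 for CHD8. Of 22 receptors and transducers, RSPO3, an agonist that protects Frizzled from RNF43 and ZNRF3, was higher by 1.53 log2 units. For RSPO3, TOV112D was at rank 3 with 5.97, and OVCA432 was highest at 7.45. The RSPO3 receptors LGR4 and LGR5 were lower, with differences of -2.73 and -1.34. LGR4 was at 6.14 beside a median of 8.90 over lines. LGR5 was at 4.25 beside a median of 4.78, with the highest line, FUOV1, at 10.62. Of 20 genes for Wnt ligands and their release, WLS, the carrier of Wnt proteins, was higher by 2.05. WNT7A was lower, with a difference of -1.36. For WLS, TOV112D was at rank 3 with 12.05, and OVCA432 was highest at 12.2.

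Of 12 genes for secreted Wnt antagonists, DKK1, DKK2, SFRP4 and WIF1 were called higher over arrays, by 2.70, 2.98, 1.26 and 2.29 log2 units, and DKK3 and SFRP1 lower. For DKK1, TOV112D was at rank 7 of the lines, for SFRP4 at rank 3, for DKK2 at rank 2 and for WIF1 at rank 1. Of 18 genes known as beta-catenin targets in other tissues, TNFRSF19, DKK1, WIF1, BAMBI and FGF9 were called higher. TOV112D was at rank 1 for TNFRSF19 and FGF9 and at rank 2 for BAMBI, after CH1 at 11.24. LGR5, CD44, MMP7, NRCAM and ISL1 were called lower, and the median difference was -0.16 log2 units. DKK1, DKK4 and WIF1 are also among the antagonists and LGR5 among the receptors, and these genes count in both lists. MMP7 was at 4.17 in TOV112D, beside a median of 4.64 over lines and a highest line, EFO21, at 10.55. In these lists, beside the same shares of all genes called, WIF1 and TNFRSF19 alone also passed against the spread of lines. TNFRSF19, a receptor of the tumour necrosis factor family, was at 9.46 in TOV112D and at 6.42 on average elsewhere (difference 3.05, SE 0.17, limma adjusted p = 5.83e-15 over arrays, 0.00434 against the spread of lines). WIF1, which binds Wnt proteins outside the cell, was at 6.70 against 4.41 (difference 2.29, SE 0.27, limma adjusted p = 7.31e-08 and 0.0221). The common target genes MYC and CCND1 were at 10.25 and 9.79 in TOV112D against 9.86 and 10.33, and neither was called.

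The EMT score, rebuilt from 184 epithelial and 200 mesenchymal signature genes, ran from -0.819 in PEO1 to 0.72 in TOV112D, the line with the highest AXIN2 and LEF1. A2780 was next at 0.712. Its arrays scored 0.771 and 0.652 and overlapped those of TOV112D, at 0.707 and 0.733, so the top rank was not resolved. A2780 was at 6.03 for AXIN2 and 4.50 for LEF1. None of the 9 genes is in the signature. None passed along the score in limma over the 28 lines, and 1 of 9, LEF1, had an unadjusted p under 0.05, as 1796 of all 18377 genes did. After adjustment 0.19% of all genes rose and 0.909% fell. The slope of LEF1 was 1.05 log2 units for a change of 1 in the score (SE 0.40, limma adjusted p = 0.302). Its Pearson's r was 0.443 and Spearman's rho 0.299, with an r of 0.348 once the 2 extreme lines, PEO1 and TOV112D, were left out. HEYC2, second for LEF1, scored -0.212 on the array that stands apart and 0.695 on its duplicate. The lowest limma adjusted p of the 9 genes was 0.139 without the 3 arrays. It was 0.0544 without array 1 of every line and 0.706 without array 2 of every line. Within base media, rho for LEF1 was 0.37 over the 10 DMEM lines, -0.0667 over the 9 RPMI lines and -0.393 over the 7 DMEM/F12 lines. AXIN2 had a slope of 0.21 (SE 0.29, limma adjusted p = 0.943) and a rho of -0.0586. The second line for AXIN2, OVCA432, scored -0.141, and OAW28, at rank 4, -0.454.

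**Figure D5:**
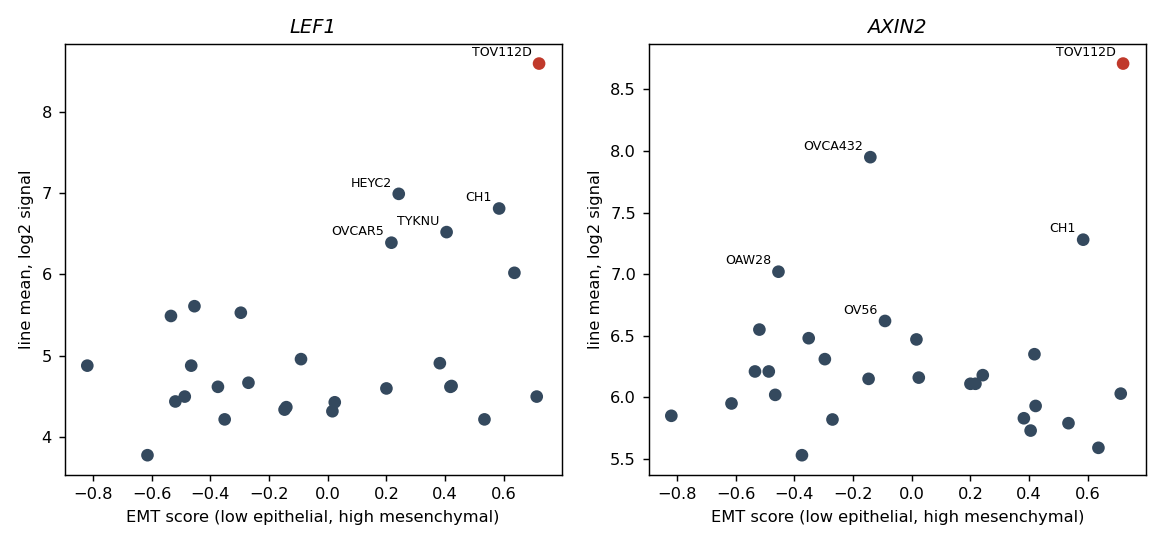
Line means of LEF1 (left) and AXIN2 (right) in log2 signal against the EMT score of the line, for 28 lines, with TOV112D in red and the 5 highest lines named. TOV112D lies at the top right in both panels, at a score of 0.72, while OVCA432, second for AXIN2, lies at -0.141.

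Base media could be compared only in a test that called no gene at all, so that it shows neither a difference nor its absence. None of the 9 passed a limma F test over the 26 lines of the 3 commoner base media, nor did any of all 18377 genes (0% called), and 0 of the 9 and 350 of all genes had an unadjusted p under 0.05. The lowest p of the 9 was for ZNRF3 (0.1 by limma, unadjusted), whose mean was 7.46 ± 0.51 (SD, n = 10 lines) in DMEM, 7.08 ± 0.32 (SD, n = 9 lines) in RPMI and 7.15 ± 0.20 (SD, n = 7 lines) in DMEM/F12. AXIN2 was at 6.49 ± 0.72, 6.0 ± 0.22 and 6.22 ± 0.36 in the same groups. OVCA432 and CH1, the lines after TOV112D for AXIN2, both grew in DMEM. TOV112D was not part of this comparison.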

How the data were processed

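Per the submitters' processing notes, the authors used RMA (robust multi-array averaging, affy 1.42.3), and they deposited log2 values per probe set. Values run from 1.35 to 14.89, and array medians from 5.96 to 6.31. Which arrays were normalized together is not given in the sources used here. How RMA acts on dim genes was not examined. Precision is limited by the number of arrays.

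Of 28869 probe sets, 19310 are annotated to 1 gene. For 685 genes with several, the probe set of highest mean was used, which left 18377 genes. Each line was compared with the other 27 in limma 3.58.1 (R 4.3.3, eBayes with trend and robust settings), over 56 arrays with a mean for each line, or over 28 line means with an indicator of the line. Benjamini-Hochberg adjustment was over all genes, and calls needed an adjusted p under 0.05 and 1 log2 unit. Line means were also fitted on the EMT score (signed Kolmogorov-Smirnov statistic over 184 epithelial and 200 mesenchymal genes of 420 listed, each centred on its median over lines) and on base medium. The fits were tested on simulated data.

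The genes and lists were chosen with earlier results of these data known. Genes were named by a rule: the 10 genes, pathway genes called under both tests, the 8 genes most like AXIN2 and the 8 most like the mean, and markers. Other pathway genes were named with their values known. One array labelled JHSO4 was taken as JHOS4, whose other array it matched best. Tables and figures were made in Python 3.11.15 with numpy 2.4.6, pandas 2.3.3 and matplotlib 3.10.9.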

Additional observations from a re-analysis of the deposited data

Results flagged for a closer look

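Within each base medium, the highest and the lowest line of each gene was compared with its neighbour, which made 27 groups of 7 to 10 lines. A gap that is large for the range of the group was found 5 times, and chance alone flags about 1 group in 20. HEYC2 lay far above the other RPMI lines for NKD2, at a mean of 6.94 log2 units against 6.50 in the next line, for SP5, at 7.95 against 7.47, and for APCDD1, at 7.01 against 6.30. OVCA420 lay above the other DMEM lines for SP5, at 7.94 against 7.41, and OV56 above the other DMEM/F12 lines for SP5, at 7.87 against 7.29. Each of these 3 lines holds one of the arrays that stand apart, and none of the 5 gaps was left without those arrays. In their place 2 others appeared, LEF1 in JHOS2 among DMEM/F12 lines, at 5.49 against 4.70, and SP5 in OVCAR3 among RPMI lines, at 7.47 against 7.30.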

How the results depend on the processing

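The counts for TOV112D stayed at 3 genes over arrays and 2 against the spread of lines under further quantile normalization. They also stayed under a filter on low values (a line mean of at least 6 in at least 2 lines). So they did under limma without trend and robust settings, and without the 3 arrays, the array labelled JHSO4, or either array of TOV112D. The mean over probe sets gave the same counts, but it cannot change the values of the 9 genes, which have 1 probe set each. Exceptions to these counts were the fit with no minimum difference and HEY merged with HEYC2. The former gave 5 over arrays, with NOTUM and ZNRF3 added, where 9.13% of all genes were higher, against 3.38% in the main fit. The latter gave 3 against the spread of lines, with LEF1 added. Over all lines, further quantile normalization gave 10 and leaving out the 3 arrays 11 combinations higher over arrays, and no minimum difference gave 31 combinations higher in place of 9 over arrays and 4 in place of 2 against the spread of lines. With 1 array left out of every line, the latter count was 5 to 8. With array 1 left out, AXIN2 and APCDD1 in TOV112D were called and the other 3 calls came from OV56, and with array 2 left out all 8 came from HEYC2 and OVCA420, each read from the array that stands apart, and TOV112D had none. Leaving out an array of the compared line alone, chosen after seeing the data, gave 13 to 20. Beside these counts over all lines, and beside that with HEY and HEYC2 merged, no share of all genes is given. They are not read as a result about the 9 genes. The numbers of the arrays were not taken to pair them, since the correlation of same-numbered deviations was over 0.1 in only 91 of 378 pairs of lines (-0.887 to 0.871), and with the replicate number as a block the calls stayed at 3 and 9. None of the 9 genes passed along the EMT score or between base media under any alternative run, and other genes were not counted in these runs. Of 252 recomputed differences of single genes, 248 kept their call, 3 gained a call and 1 (RNF43 in HEY, at -0.98) lost it. Of the differences called in either fit, 0 reversed. Differences without a call could change sign, as NKD2 in TOV112D did over arrays, from -0.02 to 0.04 without the 3 arrays. The 252 include those under the mean over probe sets, whose values cannot differ. With 2 arrays per line, differences of NKD2 and SP5 that are smaller than the spread between arrays were not detectable.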
